A study of Mus musculus with 15 samples.

Results

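The 9 immune checkpoint genes Pdcd1 (PD-1), Cd274 (PD-L1), Pdcd1lg2 (PD-L2), Havcr2 (TIM-3), Lgals9 (galectin-9), Vsir (VISTA), Lag3 (LAG-3), Ctla4 (CTLA-4) and Tigit (TIGIT) were followed by their symbols in a bulk RNA sequencing table of 38315 genes from mouse bone marrow. The set was chosen by the high normalized counts of Pdcd1 in leukaemic marrow, with its partners and the other checkpoint genes added by name, so those values are a description here and carry no test. The table held 15 samples in 3 groups. There were 7 marrows with acute myeloid leukaemia (AML) from transgenic mice of the genotype NUP98-NSD1/FLT3-ITD, which pairs a fusion of a nucleoporin gene and a histone methyltransferase gene with an internal tandem duplication in the FLT3 receptor tyrosine kinase. Normal marrow came from wild-type mice, as 4 samples of whole marrow and 4 of the lineage-negative fraction, from which cells with markers of mature lineages have been removed. The promoter that drives each transgene, the age of the mice and the number of mice behind each sample are not given in the sources used here. P-values therefore measure the spread between these samples, which may be technical.

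Immune checkpoints are pairs of receptors and ligands that restrain lymphocytes. PD-1, CTLA-4, LAG-3, TIGIT and TIM-3 are receptors of activated or chronically stimulated T cells, and some of them are also found on NK cells or myeloid cells. PD-L1 and PD-L2 are the ligands of PD-1 and are made by myeloid cells and, for PD-L1, by many tissues exposed to interferon gamma. Galectin-9 is a secreted sugar-binding protein that can bind TIM-3, and VISTA is a ligand and receptor that is abundant on myeloid cells.

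Because Pdcd1, Ctla4 and Cd274 represent the receptors and the ligand described first, the 250 bases before their starts are printed, 5′ to 3′ on the gene's strand, from RefSeq on GRCm38.p6. The windows are chr1:94052554-94052803 on the minus strand for Pdcd1, chr1:60908775-60909024 on the plus strand for Ctla4 and chr19:29367188-29367437 on the plus strand for Cd274. Capitals mark GGAAA, the core bound by NFAT factors, and GAGGAA, an ETS core with its flank, each on either strand.
Pdcd1: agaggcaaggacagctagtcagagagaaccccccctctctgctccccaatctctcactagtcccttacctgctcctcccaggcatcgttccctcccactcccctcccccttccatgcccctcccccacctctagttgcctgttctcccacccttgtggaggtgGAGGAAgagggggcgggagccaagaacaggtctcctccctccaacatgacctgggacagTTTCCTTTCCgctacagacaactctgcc
Ctla4: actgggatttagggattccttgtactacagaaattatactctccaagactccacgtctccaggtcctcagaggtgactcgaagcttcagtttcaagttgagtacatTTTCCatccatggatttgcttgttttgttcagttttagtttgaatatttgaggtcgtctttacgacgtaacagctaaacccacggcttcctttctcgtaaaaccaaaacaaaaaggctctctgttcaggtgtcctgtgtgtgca
Cd274: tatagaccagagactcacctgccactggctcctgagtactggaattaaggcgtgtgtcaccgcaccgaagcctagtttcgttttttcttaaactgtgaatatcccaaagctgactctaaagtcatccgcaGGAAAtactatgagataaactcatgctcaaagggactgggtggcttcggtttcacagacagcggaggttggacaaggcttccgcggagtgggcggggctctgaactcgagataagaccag
In Pdcd1, GGAAA began at −28 and −23 from the start and GAGGAA at −87. In Cd274 GGAAA began at −120, and in Ctla4 at −144. RefSeq promoters were matched for 8 of the 9 genes, all except Lag3, and 6 of those 8 held GGAAA, against 55.7% of 32536 promoters of that length. GAGGAA was found in 4 of the 8 and in 23.4% of all promoters. The AP-1 element TGANTCA was found in Havcr2, against 6.7% of all promoters, and the interferon-stimulated response element in Lgals9, against 3.0%. These matches are letters in a window and no evidence of binding.

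Estimated depth, in megareads (M reads), was 20.3 to 35.1 per AML library, 11.4 to 17.2 in whole marrow and 20.3 to 28.1 in lineage-negative marrow. Values are normalized counts, that is estimated reads divided by a size factor per library, and 3 reads, taken here as the floor of detection, corresponded to 1.96 to 4.09. The sums of marker lists set the normal groups apart, though not all in the direction the labels give. The 6 stem and progenitor markers summed to 15753 to 20195 in lineage-negative marrow against 1383 to 2609 in whole marrow, and the 6 B cell markers to 301 to 541 against 3787 to 8262. The sum of the 9 NK cell markers went the other way, at 1611 to 2100 in lineage-negative against 775 to 1487 in whole marrow. Its largest member, Nkg7, had means of 1437 and 510. By the calling thresholds given below, 1 of the 9 was higher in lineage-negative marrow and 5 were lower. Their median log2 difference was −1.08. The sum of the 3 regulatory T cell markers was also higher in lineage-negative marrow, at 1056 to 1979 against 293 to 559. In it Ikzf2 had means of 1419 and 327, while Il2ra was lower in lineage-negative marrow (10.7 against 78.1). Whole marrow had a higher background. There, 1452 olfactory and vomeronasal receptor genes averaged 1.72 to 3.29 normalized counts per kilobase, against 0.0840 to 0.843 in the AML libraries and 0.0679 to 0.105 in those of the lineage-negative fraction. Fewer genes were at 0 in AML replicates 5 and 6 (29.1% and 23.6%) than in the other 5 (38.2% to 41.4%). Whole marrow was also lower at the median gene. The median log2 difference over the 18941 genes that passed the filter on low values was 0.67 for AML less whole marrow, 0.02 for AML less lineage-negative marrow and 0.59 for lineage-negative less whole marrow. A relative difference below is the log2 difference less this median.

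Pdcd1 encodes PD-1, the receptor whose tail recruits the phosphatase SHP-2 to the T cell receptor. Its normalized counts in AML replicates 1 to 7 were 102, 380, 342, 135, 43.4, 1225 and 113. They were 4.49, 4.02, 10.4 and 13.6 in whole marrow and 0.908, 6.17, 1.76 and 9.79 in lineage-negative marrow. Every AML library was above every normal library, and replicate 6 was far above the next highest, replicate 2. The AML mean was 334 ± 413 (SD, n = 7), and 186 without replicate 6. The whole marrow mean was 8.15 ± 4.69 (n = 4) and the lineage-negative mean 4.66 ± 4.13 (n = 4). The normal means rest on 28 and 25 reads in all. The ratio of the AML mean to the whole marrow mean was 41.1, with a counting interval of 28.4 to 61.8 (exact Poisson, 95%, normal reads only). On the scale of log2(normalized count + 1), which understates changes of low genes, AML exceeded whole marrow by 4.58 (SE 0.69, relative difference 3.90) and lineage-negative marrow by 5.45 (SE 0.69). Per kilobase, the whole marrow libraries were at 0.706 to 4.10 times the mean of the olfactory and vomeronasal genes of the same library, so Pdcd1 in whole marrow was not detectable above that background in every library. In bulk RNA, fewer cells of a type and less RNA per cell cannot be told apart.

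**Figure D1:**
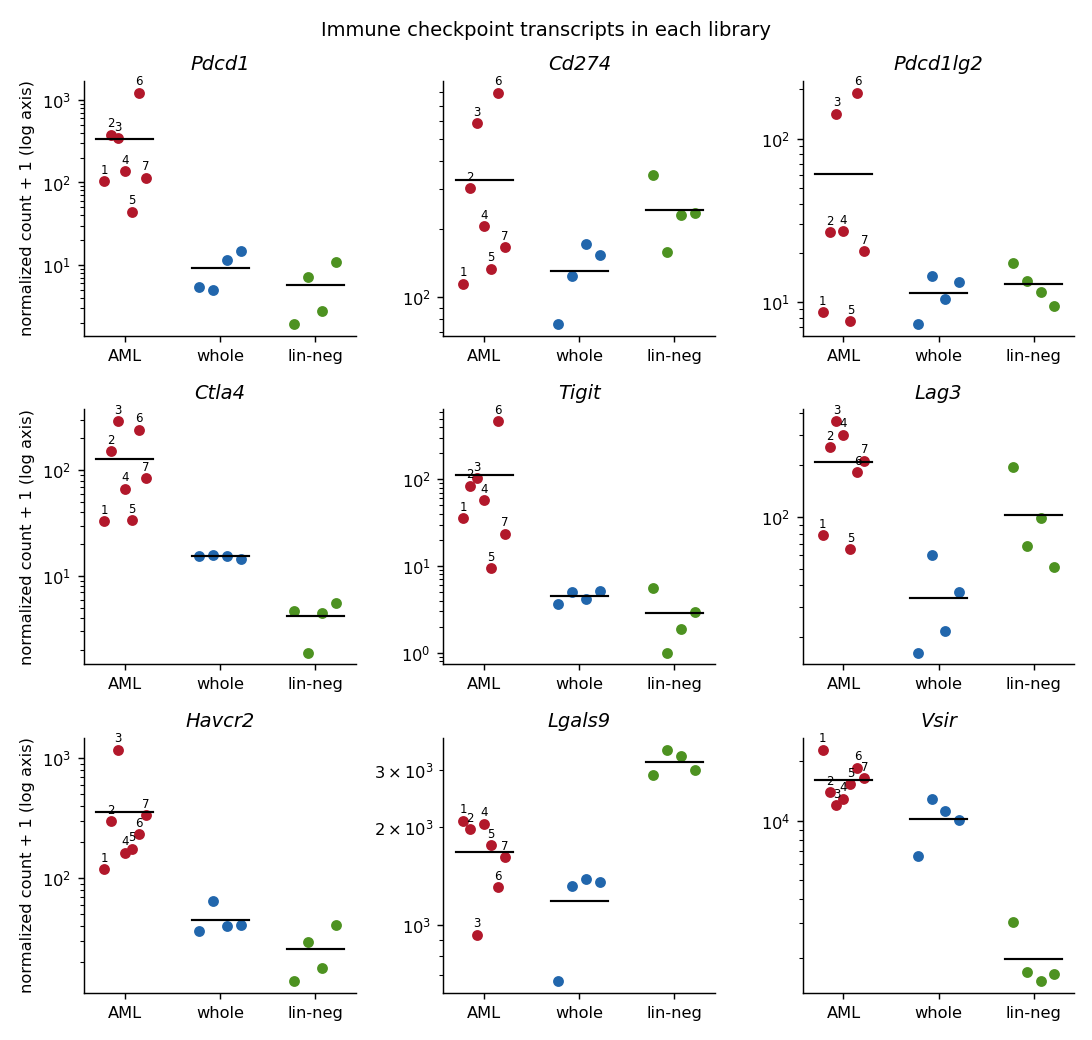
Normalized counts plus 1 of the 9 checkpoint genes (log axis), with a point for each of the 7 AML, 4 whole marrow and 4 lineage-negative (lin-neg) libraries, numbers beside the AML replicates and lines at the group means. Pdcd1, Ctla4, Tigit, Lag3 and Havcr2 in AML lie above all whole marrow libraries, while Vsir and Lgals9 are the most abundant genes in each group.

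Ctla4 encodes the receptor that competes with CD28 for CD80 and CD86. In AML it ranged from 31.8 (replicate 1) through a median of 83.1 to 290 (replicate 3), with 241 in replicate 6. Whole marrow libraries were at 14.4, 14.7, 14.6 and 13.6, and lineage-negative libraries at 3.63, 0.881, 3.53 and 4.57. The 3 groups did not overlap, and the lineage-negative libraries held 16 reads of Ctla4 in all. AML exceeded whole marrow by 2.62 (SE 0.54) on the log2 scale, and it exceeded lineage-negative marrow by 4.62 (SE 0.54, adjusted p = 8.82e-07, limma, Benjamini-Hochberg over all genes kept). A ribosomal protein pseudogene, Rpl18-ps1, lies within Ctla4 on the same strand, so some of its reads may have been counted to either gene.

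Tigit encodes a receptor for the poliovirus receptor CD155 on T and NK cells. AML libraries ranged from 8.49 (replicate 5) through a median of 56.6 to 466 (replicate 6). Whole marrow libraries were at 2.69, 4.02, 3.13 and 4.09, which is 3 reads each, and lineage-negative libraries at 4.54, 0, 0.881 and 1.96. Again all AML libraries were above all normal ones, but the normal groups rest on 12 and 9 reads. The AML mean of 111 ± 160 was 51.4 without replicate 6. The ratio of the AML mean to the whole marrow mean was 31.8, with a counting interval of 18.2 to 61.5. Per kilobase the whole marrow libraries were at 0.889 to 2.58 times the olfactory and vomeronasal mean, so this ratio is set against a level not clearly above background. The log2 differences were 4.59 (SE 0.73) from lineage-negative and 3.67 (SE 0.73) from whole marrow. They are given without p, because Tigit passed the filter on low values through AML libraries alone, and genes that pass in this way had to differ.

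Lag3 encodes a CD4-related receptor that binds MHC class II. In AML it ranged from 64.2 (replicate 5) through a median of 211 to 359 (replicate 3). Whole marrow was at 15.3, 59.0, 20.9 and 35.5, below all AML libraries, and lineage-negative marrow was at 194, 67.0, 96.9 and 50.3, within and below the AML range. AML exceeded whole marrow by 2.58 (SE 0.48). Against lineage-negative marrow the difference of 0.97 (SE 0.48) did not pass (adjusted p = 0.106, limma). Lag3 rose in lineage-negative relative to whole marrow by 1.61 (SE 0.54, adjusted p = 0.0137, limma). With trimmed mean scaling (TMM), which sets the typical gene equal between groups, that last call was lost (0.92, adjusted p = 0.16). It was also lost without whole marrow replicate 1 (adjusted p = 0.0632) or lineage-negative replicate 1 (0.0584). The difference between AML and lineage-negative marrow passed without AML replicate 1 (1.17, adjusted p = 0.0493), AML replicate 5 (1.21, 0.0346) or lineage-negative replicate 1 (1.34, 0.036).

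Havcr2 encodes TIM-3, a receptor of T cells that is also found on dendritic cells, macrophages and human leukaemic stem cells. Its values in AML ranged from 117 (replicate 1) through a median of 231 to 1185 (replicate 3). Whole marrow was at 35.0, 63.0, 38.6 and 39.6 and lineage-negative marrow at 12.7, 28.2, 16.7 and 39.8. The AML libraries did not overlap with either. The AML mean of 358 ± 373 was 220 without replicate 3. AML exceeded whole marrow by 2.60 (SE 0.47) and lineage-negative marrow by 3.52 (SE 0.47, adjusted p = 4.15e-06, limma). Replicate 3 also had the highest sum of 6 dendritic cell markers (14548, against 1098 to 6764 in the other AML libraries) and of 6 B cell markers (6414, against 491 to 2921). The 3 libraries highest in Havcr2, replicates 3, 7 and 2, were also the 3 highest in the dendritic sum. The part of these cells in the Havcr2 values was not tested.

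Cd274, which encodes PD-L1, overlapped between all groups. AML values ran from 114 (replicate 1) through a median of 204 to 797 (replicate 6), with 583 in replicate 3. Whole marrow was at 74.9, 123, 170 and 152, and lineage-negative marrow at 344, 158, 230 and 234. The order of means was AML (328 ± 262), lineage-negative (242 ± 76.8) and whole marrow (130 ± 41.5). AML exceeded whole marrow by 1.04 (SE 0.44), but by 0.36 relative to the median of all genes. The difference from lineage-negative marrow was 0.14 (SE 0.44, adjusted p = 0.821, limma), with the sign turned without AML replicate 3 (−0.06) or 6 (−0.14) or lineage-negative replicate 2 (−0.05), and that between the normal groups 0.90 (SE 0.49, adjusted p = 0.117). An antisense RNA gene, Gm36043, overlaps Cd274, and the strand used in counting is not given in the sources used here.

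Pdcd1lg2, which encodes PD-L2, was low. In AML its counts ranged from 6.61 (replicate 5) through a median of 25.9 to 190 (replicate 6), with 141 in replicate 3. Whole marrow was at 6.28, 13.4, 9.39 and 12.3 and lineage-negative marrow at 16.3, 12.3, 10.6 and 8.48. Replicates 3 and 6 were far above the other AML libraries, of which replicates 1 and 5 lay within the normal range. The differences were 1.49 (SE 0.70) from whole marrow (called without AML replicate 1 or 5, at 1.80 and 1.83) and 1.29 (SE 0.70, adjusted p = 0.144, limma) from lineage-negative marrow. The normal groups differed by 0.20 (SE 0.79, adjusted p = 0.835), with the sign turned under TMM scaling (−0.44).

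Lgals9, which encodes galectin-9, was highest in lineage-negative marrow. Its values there were 2878, 3458, 3303 and 2990, above all other libraries. In AML it ranged from 931 (replicate 3) through a median of 1758 to 2089 (replicate 1), and whole marrow was at 669, 1317, 1382 and 1355. The log2 difference of AML from lineage-negative marrow was −0.96 (SE 0.23, adjusted p = 0.00202, limma). This passed the p threshold and missed the required size of 1, which it reached without AML replicate 1 (−1.02), 2 (−1.01) or 4 (−1.02) or lineage-negative replicate 1 (−1.004). Lineage-negative marrow exceeded whole marrow by 1.47 (SE 0.26, adjusted p = 7.23e-05), and by 0.77 (adjusted p = 0.0026) under TMM scaling, too small for a call. AML and whole marrow overlapped, and their difference of 0.51 (SE 0.23) became −0.17 under TMM scaling.

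Vsir, which encodes VISTA, had the highest counts of the 9 genes in AML and in whole marrow. AML libraries ranged from 12036 (replicate 3) through a median of 15340 to 22953 (replicate 1). Whole marrow was at 6605, 12914, 11144 and 10125 and lineage-negative marrow at 3043, 1697, 1524 and 1665. Lineage-negative marrow was below every other library. AML exceeded it by 3.04 (SE 0.24, adjusted p = 4.19e-09, limma), and whole marrow exceeded it by more than 2 log2 units, since lineage-negative less whole marrow was −2.38 (SE 0.27, adjusted p = 6.74e-07). AML and whole marrow overlapped, with a difference of 0.66 (SE 0.24) that was −0.01 relative to all genes. The 8 monocyte and macrophage markers summed to 57434 to 94699 in AML, 12556 to 27632 in whole marrow and 10552 to 17276 in lineage-negative marrow. Their part in the Vsir values was not tested. Vsir overlaps Cdh23 on the other strand, whose mean was 140.

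Counted over the 9 genes, 6 were called higher in AML than in whole marrow (at an adjusted p below 0.05 and a log2 difference of 1 or more in size), where 27.3% of all genes were called higher and 11.3% lower. Since the set was built on this contrast, the count is a description only. With TMM scaling 5 of the 9 were called higher, Cd274 being lost, with 4.95% of all genes called higher and 15.8% lower. Cd274 also lost the call without any of 8 single libraries, at differences of 0.76 to 1.13. The share of calls that were higher fell from 70.8% to 23.8%. With limma-voom on the estimated reads, 2 of the 9 were called higher, Havcr2 and Lag3. In the 12 alternatives other than leaving out 1 library, the difference was at least 3.87 for Pdcd1, 1.90 for Ctla4 and 2.90 for Tigit. The groups did not overlap for 5 of 9 genes, against 35.8% of all genes with AML above and 7.88% with AML below.

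Against lineage-negative marrow, 5 of 9 genes were called higher in AML (Pdcd1, Ctla4, Tigit, Havcr2 and Vsir), where 17.7% of all genes were called higher and 12.5% lower. This count is a description too, since Pdcd1 was chosen for its AML values and Tigit passed the filter through AML alone. The same 5 were called with TMM scaling and with limma-voom. None of the 9 was called lower by limma, with TMM scaling or by limma-voom, and 1, Lgals9, had an unadjusted p under 0.05 and a lower value in each of them. The libraries did not overlap for these 5 genes and for Lgals9, against 17.0% of all genes with AML above and 17.6% with AML below. The median log2 difference of the 9 was 3.04, and that of all genes 0.02. The 17 T cell markers summed to 1996 to 9514 in AML, 1124 to 1797 in whole marrow and 606 to 895 in lineage-negative marrow. Of the 17, 15 were called higher in AML than in lineage-negative marrow, from which mature cells had been removed. Against whole marrow 9 of the 17 were called higher, beside 27.3% of all genes. With TMM scaling 2 were, beside 4.95% of all genes, and Cd3e and Cd3g were among those that lost the call. None of the 17 was at 0 in any library.

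Between the normal groups, 2 of 9 genes were called higher in lineage-negative marrow (Lgals9 and Lag3) and 2 lower (Vsir and Ctla4), with 33.1% of all genes called higher and 17.2% lower. With TMM scaling 0 were called higher by limma, and 1 of the 9 had a higher value at an unadjusted p under 0.05. By limma-voom 0 were called higher and 1 lower (Vsir). Vsir and Ctla4 were called lower with TMM scaling as well, beside Havcr2, when 10.9% of all genes were called higher and 24.8% lower. Ctla4 differed by −1.99 (SE 0.61, adjusted p = 0.0076, limma) between the normal groups, a call lost with quantile scaling (−0.90, adjusted p = 0.181) and by limma-voom (adjusted p = 0.0734). Pdcd1 (−0.88, SE 0.78, adjusted p = 0.335), Havcr2 (−0.92, SE 0.52, adjusted p = 0.133) and Tigit (−0.92, SE 0.83, adjusted p = 0.343) did not pass, and with quantile scaling the direction turned for Pdcd1 (0.81) and Tigit (1.23).

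**Figure D2:**
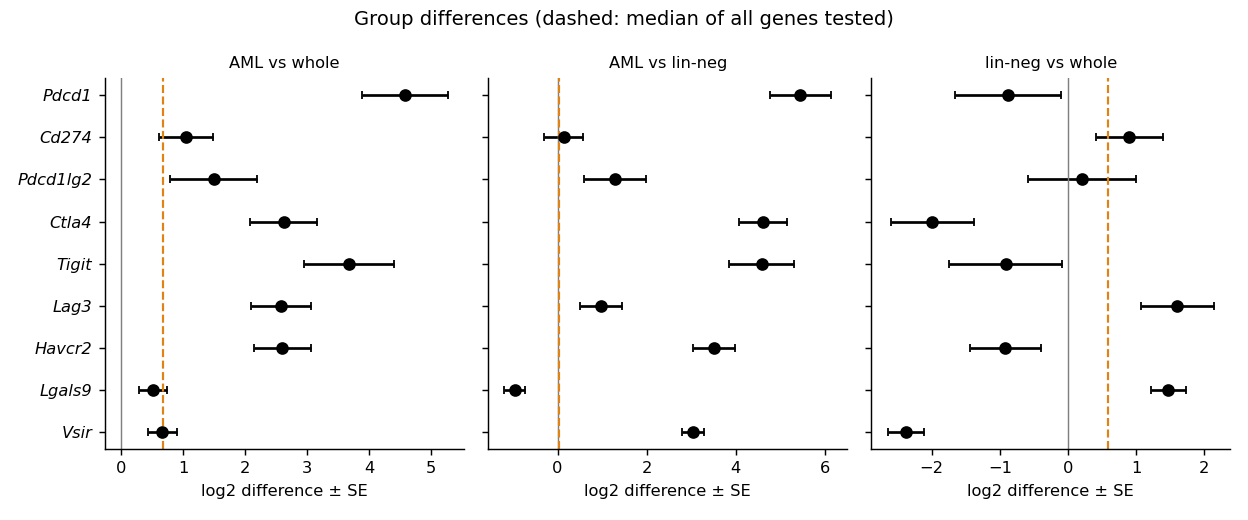
Log2 differences of the 9 checkpoint genes in the 3 comparisons, with bars of 1 standard error from the limma fit and a line at the median of all genes. Pdcd1, Tigit, Ctla4 and Havcr2 lie to the right in both comparisons with AML, while Lgals9 and Vsir lie on the median line or left of it in AML less whole marrow.

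The T cell genes Cd3e and Cd3g, which encode subunits of the CD3 complex of the T cell receptor, were compared with Pdcd1 across the 7 AML libraries. Cd3e in replicates 1 to 7 was at 131, 268, 341, 138, 49.1, 464 and 58.2. Cd3g was at 178, 424, 556, 127, 116, 967 and 105. Replicate 6 was highest and replicates 2 and 3 followed for Pdcd1, Cd3e and Cd3g alike. On the log2 scale Pdcd1 and Cd3e had a Pearson r of 0.922 (exact permutation p = 0.00179, adjusted 0.00268, n = 7). Spearman's rho was 0.929 (exact permutation p = 0.00675, adjusted 0.0101). Adjustment was over 3 relations, with Cd3e, Cd3g and the sum of 17 T cell markers. Without replicates 5 and 6, the 2 farthest from the median of Cd3e, r was 0.857 (exact permutation p = 0.0667, n = 5). Without replicate 6 alone it was 0.910. The other 2 measures fell into separate low and high sets. For Cd3g, 4 libraries were at 105 to 178 and 3 at 424 to 967, and for the sum 4 were at 1996 to 2723 and 3 at 6045 to 9514, so that no pooled correlation is given. The 3 libraries in the high set, replicates 2, 3 and 6, had Pdcd1 of 342 to 1225, and the 4 in the low set had 43.4 to 135. These 3 were also the highest in Cd3e, at 268 to 464 against 49.1 to 138 in the other 4. The r with Cd3e therefore spans the same split.

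**Figure D3:**
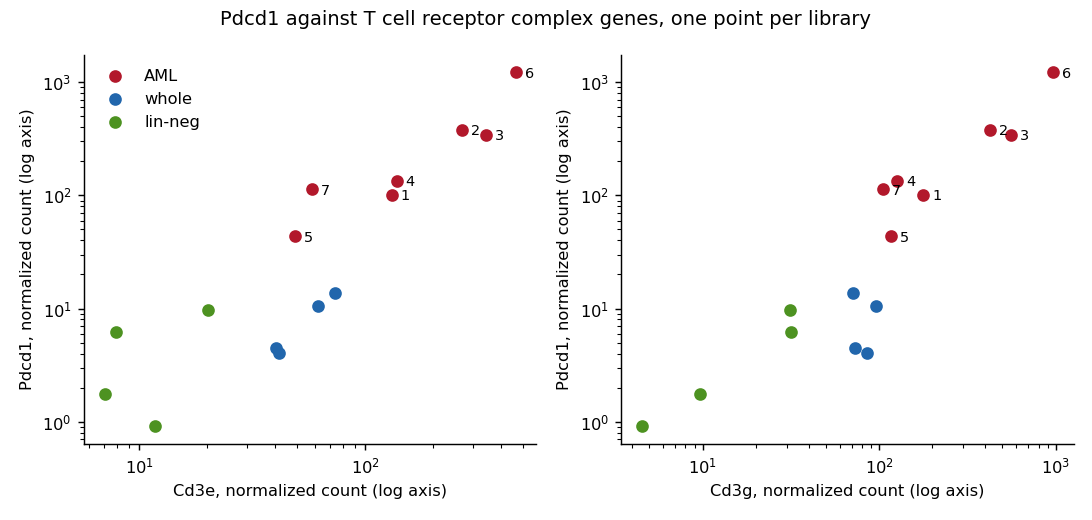
Normalized count of Pdcd1 against Cd3e and against Cd3g (log axes), with a point for each library of the 3 groups and replicate numbers beside the AML points. Within AML, Pdcd1 is higher in libraries with more Cd3e and Cd3g, and all AML points lie above whole marrow libraries of like Cd3e.

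The AML and whole marrow libraries differed in Pdcd1 at a like level of Cd3e. AML replicates 5 and 7 had Cd3e of 49.1 and 58.2, within the range of whole marrow (40.4 to 73.7), and Pdcd1 of 43.4 and 113, above the range there (4.02 to 13.6). The ratio of the normalized count of Pdcd1 to that of Cd3e was 0.777 to 2.64 in AML with a median of 1.00, 0.0968 to 0.185 in whole marrow and 0.0769 to 0.778 in lineage-negative marrow. The AML and whole marrow ranges did not overlap, while the top of the lineage-negative range just reached the lowest AML library. As a share of the summed T cell markers, Pdcd1 was at 2.18% to 12.9% in AML and 0.224% to 0.845% in whole marrow. These ratios have no test, since Pdcd1 was chosen for this contrast.

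The ratio to Cd3e of Tigit also separated AML (0.173 to 1.01) from whole marrow (0.0508 to 0.0968), where Tigit was at the floor of 3 reads in each library. In lineage-negative marrow the Tigit ratio was 0 to 0.385, which overlapped AML. For Ctla4 the ratio overlapped between AML (0.243 to 1.43) and whole marrow (0.185 to 0.356). So did that of Lag3, at 0.391 to 3.63 and 0.339 to 1.42. Cd274 per Cd3e was not higher in AML (0.868 to 2.83) than in whole marrow (1.85 to 2.95). In lineage-negative marrow, where Cd3e was at 7.05 to 20.2, the ratios of Lag3 (2.48 to 16.5) and Cd274 (11.6 to 32.6) were above those of Tigit and Ctla4.

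**Figure D4:**
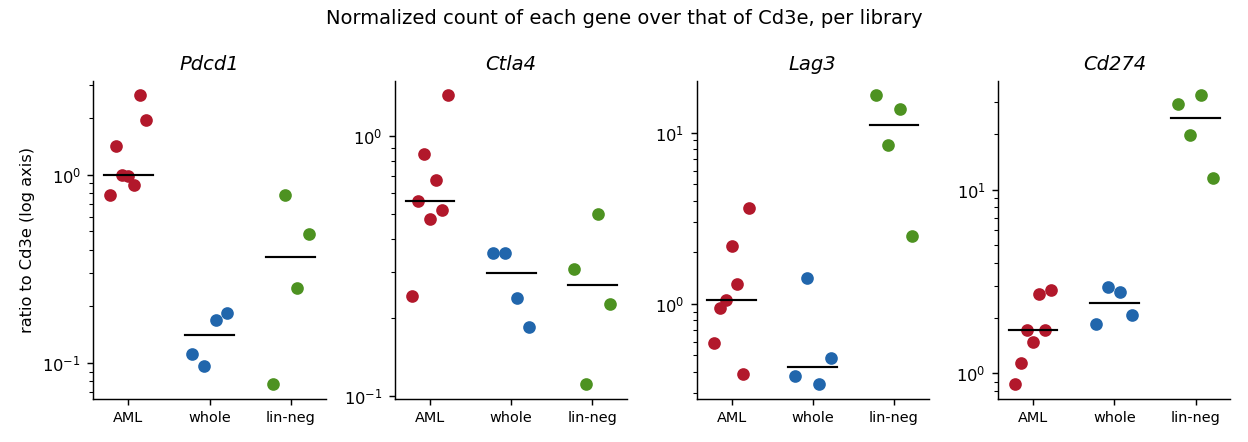
Ratio of the normalized counts of Pdcd1, Ctla4, Lag3 and Cd274 to that of Cd3e in each library (log axes), with lines at the group medians. Pdcd1 per Cd3e lies at 0.777 or above in AML and at 0.185 or below in whole marrow, whereas the Cd274 ratios of these groups overlap.

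The other 8 genes were set against Cd3e in the 7 AML libraries as 8 relations chosen after the data had been seen. Tigit had r = 0.940 (exact permutation p = 0.000198, the smallest the pairings can give, adjusted 0.00159), with the same order of libraries as Cd3e. It was 0.965 without replicates 5 and 6. For the ligands, Cd274 had r = 0.868 (adjusted 0.0532 by exact permutation) and Pdcd1lg2 r = 0.830 (adjusted 0.0608). Their Spearman's rho were 0.893 and 0.929 (adjusted 0.0328 and 0.0270 by exact permutation). Without the 2 farthest libraries r was 0.776 and 0.629. Ctla4 had r = 0.809 (adjusted 0.0694). Lag3 (r = 0.539, adjusted 0.343), Havcr2 (0.393, adjusted 0.463), Lgals9 (−0.482, adjusted 0.356) and Vsir (−0.133, adjusted 0.781) did not pass. Pdcd1 itself was set against the summed markers of 8 other cell types, also after seeing the data. The highest r was 0.758, with 3 regulatory T cell markers (exact permutation, adjusted p = 0.398), followed by 0.399 with NK cell markers (adjusted p = 0.692). The regulatory T cell sum was mostly Ikzf2, with an AML mean of 743 against 82.8 for Foxp3 and 39.7 for Il2ra. The B cell sum gave 0.242, the dendritic sum −0.350 and the monocyte and macrophage sum −0.411 (adjusted p = 0.692 each). Several of these rest on replicate 6, which had the highest Pdcd1 and low B cell and dendritic sums. Without it r was 0.859 with the B cell sum, 0.619 with the NK cell sum, 0.536 with the dendritic sum and 0.471 with the regulatory T cell sum, and 0.910 with Cd3e. Without replicates 5 and 6 (n = 5) r was 0.955 with the NK cell sum and 0.878 with the B cell sum, both above the 0.857 with Cd3e. It was 0.819 with the regulatory T cell sum and at most 0.680 with the rest of these 8.

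**Figure D5:**
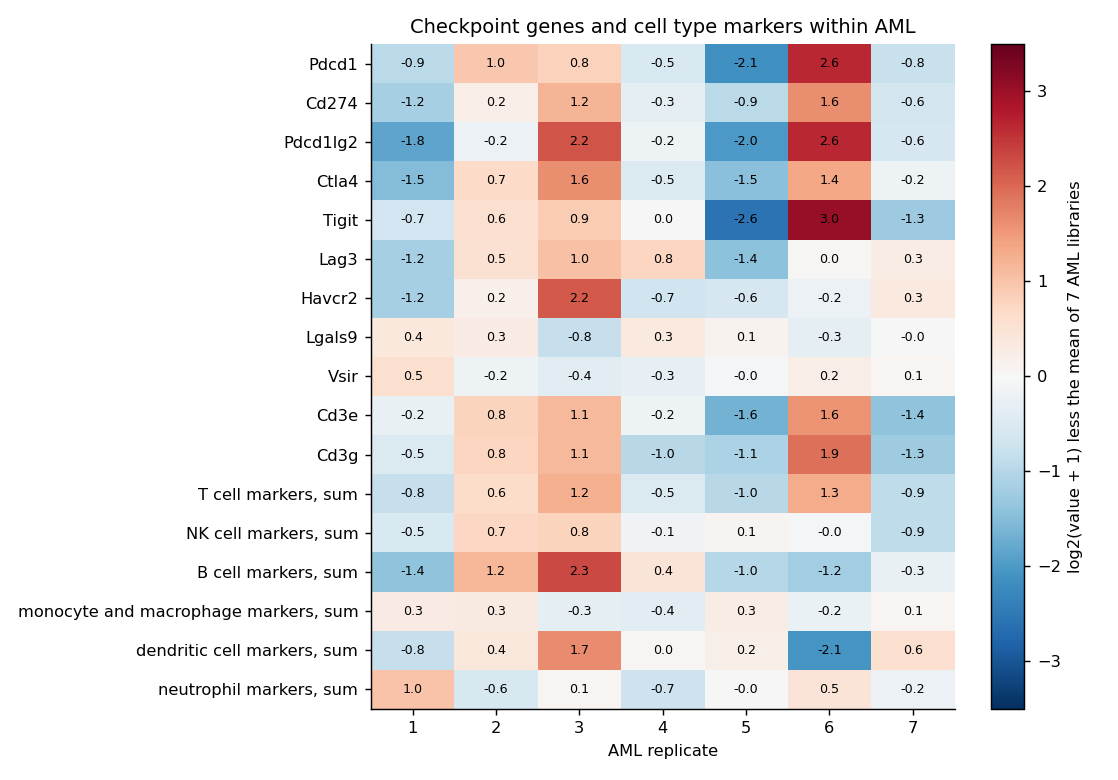
Checkpoint genes, Cd3e, Cd3g and summed cell type markers in the 7 AML libraries, as log2(value + 1) less the mean of the 7. Replicate 6 is high and replicate 5 low for Pdcd1, Tigit, Pdcd1lg2, Cd3e and the T cell sum, Havcr2 is highest in replicate 3 with the dendritic and B cell sums, and Vsir spans the narrowest range of the 9 genes.

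Levels of different genes were compared per kilobase of exon. In AML the order of mean normalized counts per kilobase was Vsir (3196 ± 751), Lgals9 (782 ± 199.9), Pdcd1 (173 ± 214), Havcr2 (131 ± 137), Tigit (120 ± 175), Lag3 (97.9 ± 51.8), Cd274 (90.6 ± 72.3), Ctla4 (54.8 ± 44.2) and Pdcd1lg2 (30.4 ± 37.8), all SD with n = 7. Vsir and Lgals9 stood apart, and from Pdcd1 to Pdcd1lg2 neighbours in the order differed by less than their spread. The places of Pdcd1 and Tigit rest on replicate 6. Without it Pdcd1 was at 96.3 ± 72.3 (n = 6), below Havcr2 (139 ± 148) and Lag3 (99.9 ± 56.4), and Tigit at 55.9 ± 39.7, below Cd274 (69.1 ± 48.7). In whole marrow Pdcd1 was next to last at 4.22 ± 2.43 and Tigit last at 3.79 ± 0.746, with Cd274 at 35.9 ± 11.5 after Vsir and Lgals9. In lineage-negative marrow Lgals9 led at 1478 ± 126, followed by Vsir at 395 ± 142, and Ctla4 was last at 1.35 ± 0.680.

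The genes most like Pdcd1 were found by Pearson's r on the log2 scale among 12452 named genes with a mean of at least 20. Over the 15 samples, which share the difference between groups, they were Gzmk (0.955), Batf2 (0.941), Cd5 (0.940), Fcgr2b (0.940) and Gprin3 (0.934). Gzmk encodes a granzyme of cytotoxic lymphocytes and Cd5 a receptor of T cells. Tigit ranked at place 9 and Ctla4 at 29, Cd3g at 53 and Cd3e at 57. Over the 7 AML samples alone they were Dkk3 (0.995), Cntf (0.995), Slamf6 (0.991), Arnt2 (0.979) and Tigit (0.975), with Cd3g at 37, Cd3e at 39 and Cd274 at 42. Not all T cell markers ranked high. Cd8b1 (0.398) was at place 1318, Lat (0.374) at 1430, Cd8a (0.256) at 2097 and Trbc1 (0.091) at 3273. The rest were at places 13 (Cd247) to 294 (Cd6). Slamf6 encodes a receptor of T, B and NK cells. Its range was 80.2 to 844 in AML and 205 to 404 in whole marrow, so that, unlike Pdcd1, it overlapped between these groups.

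The partners of the 9 genes were a list of 19, of which 18 passed the filter. They include Cd80, Cd86, MHC class II genes, Pvr and the nectins. In AML less lineage-negative marrow 12 of the 18 rose, with a median of 2.21, beside a median of 0.02 over all genes and 17.7% called higher. The largest differences were in the MHC class II genes H2-Eb1 (7.72, SE 0.54, adjusted p = 9.91e-10, limma) and H2-Aa (7.39, SE 0.49). In AML less whole marrow 10 rose and 2 fell, where 27.3% of all genes were called higher and 11.3% lower. With TMM scaling 5 rose and 2 fell, beside 4.95% and 15.8% of all genes. H2-Eb1 rose by 3.29 (SE 0.54) and H2-Ab1, another class II gene, by 3.19 (SE 0.41). Nectin3 (−1.94, SE 0.46) and Igsf11, a partner of VISTA (−2.37, SE 0.63), fell. Both were low, with whole marrow means of 26.7 and 13.4 and AML means of 6.53 and 3.03, the last near the floor of detection. Whole marrow also had the higher background, whose part in these differences was not tested. Between the normal groups, where 17.2% of all genes were called lower and 33.1% higher, 11 were lower in the lineage-negative fraction, among them H2-Aa (−4.35, SE 0.55), and 2 were higher, Nectin2 (2.28, SE 0.34) and Pvr, which encodes CD155 (1.22, SE 0.27). The 6 dendritic cell markers summed to 1098 to 14548 in AML, 830 to 1271 in whole marrow and 703 to 1081 in lineage-negative marrow. In AML replicate 6 this sum was within the whole marrow range. H2-Aa was at 9470 or more in every AML library and at 2991 or less in every whole marrow library. The part of any cell type in the class II values was not tested.

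Among 23 other inhibitory receptors and ligands, 20 were kept, and 15 of the 20 rose in AML less lineage-negative marrow (median 1.45), beside 17.7% of all genes and their median of 0.02. Pirb, a myeloid receptor for MHC class I, rose by 5.31 (SE 0.31, adjusted p = 1.03e-10, limma) and Cd101 by 5.17 (SE 0.41). In AML less whole marrow 9 of the 20 rose, beside 27.3% of all genes, led by Cd244a (2.36, SE 0.29), which encodes the receptor 2B4, and its ligand Cd48 (1.89, SE 0.33). With TMM scaling this became 3 higher and 3 lower, the latter close to the 15.8% of all genes that were lower. Of 9 costimulatory genes kept out of 12, 8 rose in AML less whole marrow (3 with TMM scaling), beside the same 27.3% and 4.95%. They were led by Tnfsf9 (2.96, SE 0.43), which encodes the 4-1BB ligand, and Tnfrsf4 (2.39, SE 0.56), which encodes OX40. Against lineage-negative marrow 6 rose, led by Cd40 (5.06, SE 0.37) and Tnfrsf9 (3.97, SE 0.71), and Cd27 fell (−1.38, SE 0.21).

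All 12 genes of PD-1 signalling were kept. In AML 7 rose relative to each normal group, beside 27.3% of all genes relative to whole marrow and 17.7% relative to lineage-negative marrow. With TMM scaling 1 of the 12 rose relative to whole marrow, near the share of all genes (4.95%), and the same shares apply to the next 2 lists. Sh2d1a, which encodes the adaptor SAP of lymphocytes, rose by 1.88 (SE 0.68) relative to whole marrow and by 4.97 (SE 0.68) relative to lineage-negative marrow. It is given without p, because it could not have passed the filter on low values without AML libraries. Of 10 genes of the interferon gamma pathway and PD-L1 stability, 7 rose in AML less whole marrow (2 with TMM scaling), led by Ifngr1 (1.70, SE 0.21). In AML less lineage-negative marrow 5 rose, among them Ifngr2 at 1.95 (SE 0.20). Of 14 transcription factors known to act on Pdcd1 in T cells, 9 rose in AML less whole marrow (3 with TMM scaling), led by Nfatc2 (2.48, SE 0.33) and Prdm1 (1.97, SE 0.32). In AML less lineage-negative marrow 11 of the 14 rose (median 1.84), led by Irf4 (4.40, SE 0.41) and Tox (3.11, SE 0.47), and Nr4a2 fell (−1.75, SE 0.36). Of the 93 genes in these lists, 3 are also among the cell type markers.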

How the data were processed

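Total RNA was isolated with TRIzol and stranded total RNA libraries (TruSeq) were prepared, per the labels' protocols. The deposited values have the unit signal: per the file headers, the authors divided estimated reads per gene by a size factor of DESeq2's poscounts type, which gives the normalized counts used here. The submitters' processing notes name STAR, Partek, DESeq2 and mm10, without versions or roles, and the strand used for counting is not given in the sources used here. Of the low values, 82.2% to 87.1% per library were whole multiples of the value of 1 read within 0.02 of that step. Whole reads were therefore not recovered, count tests were not run, and depth was estimated from the step. The floor of 3 reads and counting intervals cover counting error only. The table's gene starts matched a GRCm38 annotation (GENCODE M21) for 861 of 38315 genes and for 0 of the 9 checkpoint genes, so no coordinates from the table are printed, and promoters are credited to RefSeq on GRCm38.p6. Exon lengths came from GENCODE M21.

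Genes with at least 10 normalized counts in at least 4 samples were kept (18941, all 9 checkpoint genes among them). The filter was met through 7 AML, 2 whole and 0 lineage-negative libraries for Pdcd1, and through 6 AML libraries alone for Tigit. Log2(value + 1) entered 1 limma fit of 3 group means (limma 3.58.1, R 4.3.3, trended empirical Bayes, two-sided), with Benjamini-Hochberg adjustment over all genes kept, and was tested on simulated data. Correlations over 7 AML samples were tested by all 5040 pairings, two-sided (Python 3.11.15, scipy 1.17.1). The comparison of AML with whole marrow, and Pdcd1 and Tigit in both comparisons with AML, are given without p, because the set was chosen from Pdcd1 in AML and Tigit passed the filter through AML alone. Sh2d1a, which needed AML libraries to pass the filter, is also given without p. The genes, gene lists and tests were chosen with earlier results of these data known. From each list at most 2 called genes at either end of the log2 differences are named, and as genes like Pdcd1 the 5 of highest r. Not every gene selected in this way is reported here. Alternatives were pseudocounts, filters, 3 scalings, robust variance, 2 groups alone, limma-voom on estimated reads, the replicate block and leaving out libraries.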

Additional observations from a re-analysis of the deposited data

Results flagged for a closer look

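In 33 groups of 4 or 7 libraries of the 9 checkpoint genes with Cd3e and Cd3g, 6 had a library far from the others by Dixon's criterion. The criterion was applied to normalized counts, not to the log2 scale of the other tests. Its chance rate of about 1 in 20 groups holds for normally distributed values. Counts with a long upper tail exceed it more often, so the 6 cannot be read as an excess over chance. In AML replicate 6, Pdcd1 was at 1225 with the next library at 380, and Tigit at 466 with the next at 103. That library also had the highest Cd3e (464) and Cd3g (967). In AML replicate 3, Havcr2 was at 1185 with the next at 335. In whole marrow replicate 2, Havcr2 was at 63.0 with the next at 39.6, and in whole marrow replicate 1, the library with the fewest genes at 0 (7.12%), Lgals9 was at 669 with the next at 1317. In lineage-negative replicate 1, Vsir was at 3043 with the next at 1697. The causes were not tested.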

How the results depend on the processing

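For AML less whole marrow, 7299 genes were called. The count was 3937 with TMM scaling, 3882 with scaling to library totals, 4762 with quantile scaling, 4863 with a mean of at least 50, 3878 by limma-voom and 16590 with all non-zero genes. For AML less lineage-negative marrow it was 5732, and 3820 with a mean of at least 50, where 12693 genes were tested. For the normal groups it was 9525, and 18984 with all non-zero genes. Leaving out 1 library gave 5227 to 7833, 5364 to 5844 and 8273 to 9676 calls. Among the 9 checkpoint genes, calls of higher values in AML than in whole marrow went from 6 to 2 by limma-voom. Lower values in AML than in lineage-negative marrow went from 0 to 1 (Lgals9) with library total and with quantile scaling, and from 0 to 1 without single libraries. Between normal groups, calls higher in lineage-negative marrow went from 2 to 0 with TMM scaling and by limma-voom, to 1 with quantile scaling, and to between 1 and 2 without single libraries. Calls lower went from 2 to 1 with quantile scaling and by limma-voom.

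Signs turned for differences that were below 1 in size. For AML less whole marrow, Lgals9 was at −0.17 with TMM, −0.23 with library total and −0.24 with quantile scaling and −0.17 by limma-voom, and Vsir at −0.016, −0.084, −0.062 and −0.014. Cd274 less lineage-negative marrow was at −0.32 with library total scaling, −0.0013 without AML replicates 5 and 6, and −0.14 to 0.33 without single libraries. Pdcd1lg2 between normal groups was at −0.44 with TMM, −0.058 with library total scaling and −0.53 by limma-voom, and with quantile scaling Pdcd1 was at 0.81 and Tigit at 1.23. The correlation of Pdcd1 with Cd3e was 0.857 (exact permutation p = 0.0667, n = 5) without replicates 5 and 6, also the 2 farthest from the median, and 0.880 to 0.963 without single libraries. Of 726 single-gene values, 665 kept direction and side of the threshold, 29 lost the call, 14 gained it and 18 turned sign. Apart from the smaller sets tested, the cause was not tested.

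With the replicate block, 7455, 5880 and 9681 genes were called, and the same 6, 5 and 4 checkpoint genes. Whether same-numbered samples are paired is not given in the sources used here. The deviations of same-numbered samples had correlations of −0.29 to 0.17, which cannot settle this. Depth limits Pdcd1, Ctla4 and Tigit in normal marrow, with 28, 51 and 12 reads over the whole marrow libraries and 25, 16 and 9 over the lineage-negative ones.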
